A study of Mus musculus with 6 samples.

Results

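Acyl-CoA thioesterases, encoded by the *Acot* genes, were examined in IWAT (inguinal white adipose tissue, the subcutaneous fat depot of the groin) of 6 male mice. Members were taken by gene symbol from the deposited table of 55491 genes and are *Acot1*, *Acot2*, *Acot4*, *Acot7*, *Acot8*, *Acot9*, *Acot11* and *Acot13*, that is 8 of the 13 genes with an *Acot* number. All 8 members had at least 10 counts in every library, with a lowest count of 166. Bulk RNA-seq had been performed on 3 *Ebf2*+/+ and 3 *Ebf2* E165X/+ mice, with 1 library per mouse. All mice were 4 weeks old, on the C57BL/6J background and fed regular chow. The *Ebf2* E165X/+ mice carried a nonsense variant of *Ebf2*, introduced by CRISPR/Cas9 editing of the germline, on a single allele in every cell, so that no cell type was targeted. *Ebf2* encodes a transcription factor of brown and beige adipocytes and their precursors. Total counts were between 106820505 and 135039488 in the 6 libraries, and the ranges of the genotypes overlapped (exact permutation test, two-sided, p = 0.900; with 3 mice in each group the smallest p it can give is 0.1).

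These enzymes hydrolyse acyl-CoA, the activated form in which a fatty acid enters oxidation, elongation or esterification, to the free fatty acid and coenzyme A. Acyl-CoA synthetases catalyse the opposite step, so that synthetases and thioesterases together set the ratio of activated to free fatty acid in each compartment. Type I enzymes share an α/β-hydrolase fold and are encoded by neighbouring genes, with a cytosolic (*Acot1*), a mitochondrial (*Acot2*) and a peroxisomal (*Acot4*) form. Type II enzymes have a hotdog fold and include cytosolic *Acot7*, peroxisomal *Acot8*, mitochondrial *Acot9*, *Acot11* (also called *Them1* or *Bfit*, known from cold-exposed brown fat) and *Acot13* (also called *Them2*, a partner of the lipid-binding protein encoded by *Pctp*).

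The type I genes *Acot1* to *Acot6* lie side by side on the plus strand of chromosome 12 (GRCm38), within 123.5 kb. *Acot2* is at chr12:83987861-83993873, *Acot1* at chr12:84009490-84018371 and *Acot4* at chr12:84038379-84048601. The coding sequences of *Acot1* and *Acot2* were identical at 95.3% of the aligned bases, and their longest identical run was 273 bases, in the third of 3 coding exons of each gene. The sequences at the end of that run are shown because they are what separates the reads of these genes there. Both are from the plus strand, start at coding base 1145 of *Acot1* and 1268 of *Acot2*, and have the 5 bases that differ in capitals.
Acot1: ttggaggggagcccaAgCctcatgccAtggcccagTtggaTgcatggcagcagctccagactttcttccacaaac
Acot2: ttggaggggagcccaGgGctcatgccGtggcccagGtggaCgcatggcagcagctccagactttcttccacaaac
At the other end of the coding sequence, *Acot2* has 123 bases before the first base aligned to *Acot1*. They are shown because this stretch, at the start of the protein of the mitochondrial enzyme, has no counterpart in the coding sequence of the cytosolic one.
Acot2, coding bases 1 to 123: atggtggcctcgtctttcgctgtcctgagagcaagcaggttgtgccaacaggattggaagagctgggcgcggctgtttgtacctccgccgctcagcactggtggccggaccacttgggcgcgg
Of all 50-base stretches of the annotated transcripts, 27.7% of those of *Acot2* and 19.2% of those of *Acot1* also occur in another gene, against 4.53% for *Acot4*, 15.2% for *Acot9* (all with *Acot10*) and 0% for *Acot7*, *Acot8*, *Acot11* and *Acot13*. Values of *Acot1*, *Acot2* and *Acot9* therefore depend on how the estimation divided shared reads. In the last 500 bases of the transcripts the shares were 0% for *Acot1*, 0.443% for *Acot2*, 1.11% for *Acot4* and 19.5% for *Acot9*.

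Type II genes lie apart from each other: *Acot7* at chr4:152178134-152271855 (plus strand), *Acot8* at chr2:164792765-164804882 (minus), *Acot9* at chrX:155262443-155297654 (plus), *Acot11* at chr4:106744555-106804998 (minus) and *Acot13* at chr13:24817948-24831540 (minus). EBF proteins bind sites with the core CCCNNGGG, which reads the same on both strands, so promoters (the 250 bases before a start site, RefSeq, GRCm38.p6) were searched for these letters. Of 32817 promoters, 11.8% held a match. Among the members, *Acot11* and *Acot8* held one each. Their sequences are shown in the direction of the gene with the match in capitals, because these members held a match. *Acot11* had the largest difference between genotypes of the members (log2 fold change −0.80), and *Acot8* overlapped between the genotypes (−0.051).
Acot11, chr4:106805008-106805257, minus strand: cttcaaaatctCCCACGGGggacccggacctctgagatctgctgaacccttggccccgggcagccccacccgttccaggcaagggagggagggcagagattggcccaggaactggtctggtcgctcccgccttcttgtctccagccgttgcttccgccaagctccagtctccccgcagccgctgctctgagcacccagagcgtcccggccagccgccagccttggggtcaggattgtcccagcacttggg
Acot8, chr2:164804882-164805131, minus strand: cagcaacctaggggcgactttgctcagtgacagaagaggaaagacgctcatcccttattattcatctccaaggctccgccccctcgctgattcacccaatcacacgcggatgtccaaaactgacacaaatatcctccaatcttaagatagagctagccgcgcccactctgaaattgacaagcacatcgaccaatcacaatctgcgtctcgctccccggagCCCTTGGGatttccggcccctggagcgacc
The match starts 239 bases before the start site of *Acot11* and 30 bases before that of *Acot8*. A match is a description of the letters and not a binding site, and *Acot11* has a second annotated start site whose promoter held none.

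Levels of the members were compared within the *Ebf2*+/+ mice. Expressed as CPM (the count scaled to the TMM-normalized library size) per kilobase of merged exons, *Acot13* had a level of 27.6 ± 3.60 (SD, n = 3), followed by *Acot9* at 22.4 ± 1.86, and these did not differ beyond their spread. *Acot7* (9.89 ± 1.33) and *Acot2* (7.72 ± 0.876) followed and also overlapped. *Acot8* was at 4.48 ± 0.243, *Acot11* at 1.63 ± 0.440, *Acot4* at 1.04 ± 0.154 and *Acot1* at 0.519 ± 0.107. *Acot11* and *Acot4* met at 1.19 where 1 SD is taken from the former and added to the latter. Divided by the length of the longest transcript instead, *Acot9* came first at 29.1 and *Acot13* second at 28.5. The sample labels and the study's methods name different library kits, one of which reads only the 3′ end of transcripts, for which division by length would not apply. Without it, *Acot9* led with 50.9 CPM, and *Acot7*, *Acot13* and *Acot2* followed at 21, 20.5 and 17.0 CPM. *Acot1* and *Acot4* had the lowest means on each scale, although *Acot4* and *Acot11* did not differ beyond their spread with the longest transcript as length, and the mitochondrial *Acot9* was among the first 2 on each.

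Whether *Ebf2* E165X/+ IWAT differed from *Ebf2*+/+ IWAT in these genes was then tested. *Ebf2* itself was measured at 38.3, 41.3 and 37.2 CPM in *Ebf2*+/+ mice and 22.8, 22.9 and 21.1 CPM in *Ebf2* E165X/+ mice, and the genotypes did not overlap (log2 fold change −0.81, SE 0.076, edgeR adjusted p = 0.0596). None of the 8 members passed an adjusted p of 0.05 in edgeR's quasi-likelihood test, which called 3 genes (0.00918% of the 32664 tested). DESeq2 called 1 member lower, *Acot11*, where it called 1.07% of its tested genes lower. At an unadjusted p under 0.05 in edgeR, 2 members were lower (*Acot11* and *Acot2*) and 0 higher. Of all genes tested, 3.09% were lower and 1.68% higher by that measure, and 4.21% were lower among those with 10 or more counts in each library. The log2 fold change was negative for 6 of the 8 members, as for 43.9% of the genes with 10 or more counts, and the median over the members was −0.15, compared with 0.014 over all genes tested. In bulk tissue, fewer cells of a type and less RNA per cell cannot be told apart.

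**Figure D1:**
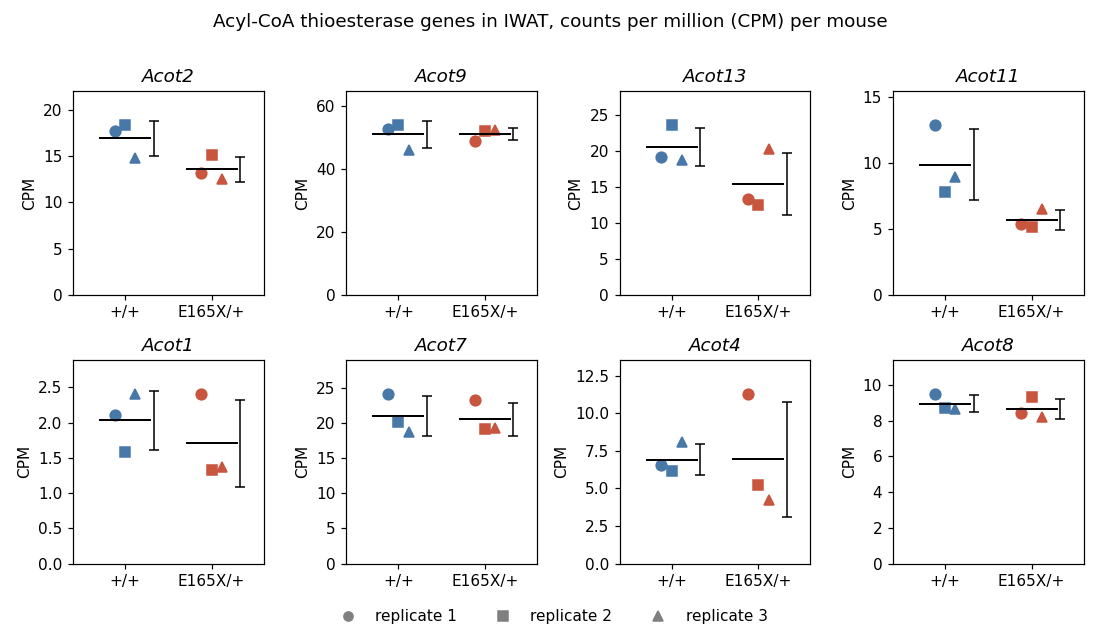
CPM of the 8 members in each mouse (vertical axis from 0, CPM), by *Ebf2* genotype; marker shapes are replicate numbers, horizontal lines are means and bars are SD of 3 mice. The genotypes are separate for *Acot11* (7.79 to 12.9 against 5.12 to 6.53 CPM) and overlap for the other members.

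*Acot11*, the type II enzyme also called *Them1*, had the largest difference of the members. Its level was 12.9, 7.79 and 8.97 CPM in *Ebf2*+/+ mice 1 to 3, and 5.40, 5.12 and 6.53 CPM in *Ebf2* E165X/+ mice 1 to 3. All *Ebf2* E165X/+ mice were below all *Ebf2*+/+ mice, a separation in this direction that 6.78% of genes with 10 or more counts in each library had, and *Ebf2*+/+ mouse 1 was the highest. The mean in *Ebf2* E165X/+ mice was 57.5% of that in *Ebf2*+/+ mice, with a log2 fold change of −0.80 (SE 0.21, 95% confidence interval −1.28 to −0.31, edgeR adjusted p = 0.783). In DESeq2 the adjusted p was 0.0148. When 1 mouse at a time was omitted, DESeq2 still called the gene in 3 of 6 fits, and its adjusted p was 0.0566 without *Ebf2*+/+ mouse 1, 0.154 without *Ebf2* E165X/+ mouse 1 and 0.232 without *Ebf2* E165X/+ mouse 2. The log2 fold change stayed between −0.96 and −0.57 in edgeR. Exons of *Acot11* overlap those of *Fam151a* on the opposite strand over 20.9% of their length, and *Fam151a* itself was at 0 in the 3 *Ebf2*+/+ libraries and at most 0.101 CPM in the others.

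*Acot13*, also called *Them2*, was measured at 19.2, 23.6 and 18.8 CPM in *Ebf2*+/+ mice and at 13.3, 12.5 and 20.3 CPM in *Ebf2* E165X/+ mice. *Ebf2* E165X/+ mice 1 and 2 were below every *Ebf2*+/+ mouse, while mouse 3 lay among them. The log2 fold change was −0.42 (SE 0.20, 95% confidence interval −0.88 to 0.041, edgeR adjusted p = 0.783, DESeq2 adjusted p = 0.539). *Ebf2* E165X/+ mouse 3 also stood apart in skeletal muscle markers. The 16 marker genes, of which *Myh4* was the most abundant, summed to 57394 CPM (5.44% of counts) in this library, compared with 987 to 9754 CPM (0.105% to 0.962%) in the other 5. Without that mouse, the log2 fold change of *Acot13* was −0.67 (edgeR adjusted p = 0.266, DESeq2 adjusted p = 0.000456). In the fits that left out another mouse, its DESeq2 adjusted p was 0.443 to 0.839. *Acot11*, for comparison, was at −0.91 without *Ebf2* E165X/+ mouse 3 (edgeR adjusted p = 0.488, DESeq2 adjusted p = 0.00661). The part of muscle RNA in the level of *Acot13* was not tested.

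**Figure D2:**
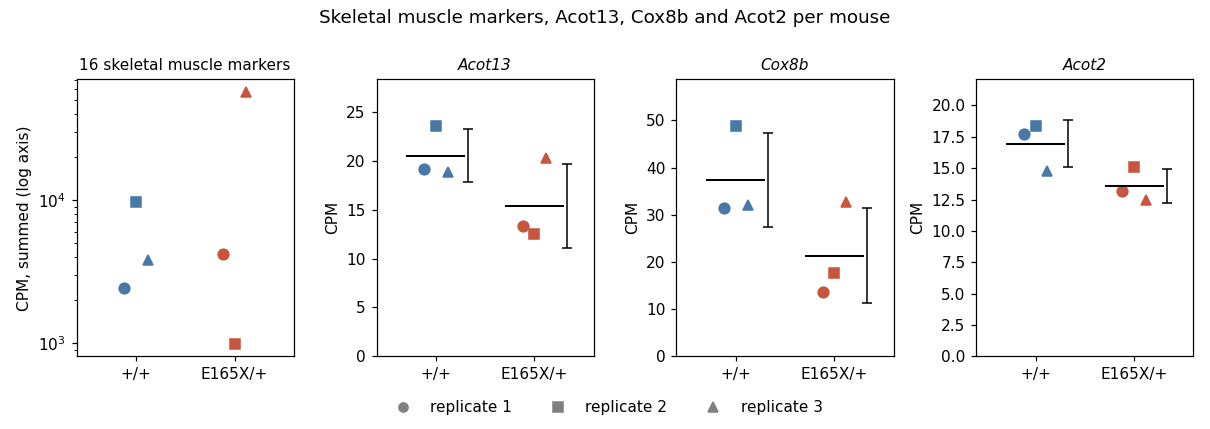
Summed CPM of 16 skeletal muscle markers (first panel, log axis) and CPM of *Acot13*, *Cox8b* and *Acot2* (axes from 0) per mouse, by *Ebf2* genotype. Shapes are replicate numbers. In the panels of single genes, lines are means and bars are SD of 3 mice. *Ebf2* E165X/+ mouse 3 has the highest muscle sum (57394 CPM) and the highest *Acot13* of its genotype (20.3 CPM), but the lowest *Acot2* (12.5 CPM).

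Over the 6 libraries, the genes of the pathway and marker lists whose log2 CPM (prior count 2) followed that of *Acot13* most closely, of 214 compared, were *Cox7a1* (Pearson's r = 0.96), *Cox8b* (0.96) and *Cpt1b* (0.94). *Cox7a1* and *Cox8b* encode subunits of cytochrome c oxidase found in muscle and brown fat, and *Cpt1b* the carnitine palmitoyltransferase of the same tissues. *Cox8b* was at 31.4, 48.9 and 32.0 CPM in *Ebf2*+/+ mice and 13.6, 17.7 and 32.8 CPM in *Ebf2* E165X/+ mice, so that mouse 3 was again the highest of its genotype. For *Acot11*, on the same log2 scale, they were *Ucp3* (0.94), *Nudt8* (0.94) and *Kcnk3* (0.92). *Ucp3* encodes a mitochondrial carrier related to UCP1, *Nudt8* a mitochondrial hydrolase of coenzyme A and its derivatives, and *Kcnk3* a potassium channel expressed in thermogenic fat. These correlations describe 6 libraries that share depth and the division into genotypes.

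Among the type I members, *Acot2*, the mitochondrial form, was at 17.7, 18.4 and 14.8 CPM in *Ebf2*+/+ mice and 13.2, 15.1 and 12.5 CPM in *Ebf2* E165X/+ mice. Only *Ebf2* E165X/+ mouse 2 lay above the lowest *Ebf2*+/+ mouse. Its log2 fold change was −0.32 (SE 0.12, 95% confidence interval −0.60 to −0.034, edgeR adjusted p = 0.783; DESeq2 adjusted p = 0.387), and its unadjusted p, under 0.05 with all mice, was above 0.05 in the 4 fits without *Ebf2*+/+ mouse 1 or 2 or without *Ebf2* E165X/+ mouse 1 or 3. *Acot1*, the cytosolic form, was at 2.11, 1.58 and 2.41 CPM in *Ebf2*+/+ mice and 2.41, 1.33 and 1.37 CPM in *Ebf2* E165X/+ mice. The genotypes overlapped (log2 fold change −0.26, SE 0.30, edgeR adjusted p = 0.810), and with 1 mouse at a time omitted the value ran from −0.59 (without *Ebf2* E165X/+ mouse 1, edgeR adjusted p = 0.811) to −0.11 (without *Ebf2* E165X/+ mouse 2). With the counts of *Acot1* and *Acot2* added together, so that the division of reads between them had no effect, the log2 fold change was −0.31 (edgeR adjusted p = 0.783).

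*Acot4*, the peroxisomal form, was at 6.54, 6.13 and 8.08 CPM in *Ebf2*+/+ mice and 11.3, 5.24 and 4.25 CPM in *Ebf2* E165X/+ mice. *Ebf2* E165X/+ mouse 1 was above and mice 2 and 3 below every *Ebf2*+/+ mouse, so that the fitted difference was near 0 (log2 fold change 0.0035, SE 0.35, edgeR adjusted p = 0.997). Without mouse 1 it was −0.54 (edgeR adjusted p = 0.811). The neighbouring genes *Acot3*, *Acot5* and *Acot6* were also highest in that mouse. *Acot3* had 22 counts there and 1 to 7 in the other libraries, *Acot5* 17 against 3 to 8, and *Acot6* 6.08 CPM against 4.28 to 5.01 CPM. Of their 50-base stretches, 19.1% (*Acot3*), 22.1% (*Acot5*) and 3.77% (*Acot6*) also occur in another gene, *Acot4* among them. The part of divided reads in these counts was not tested. *Acot2* was not highest in this mouse. With *Acot1* to *Acot6* summed, the log2 fold change was −0.16 (edgeR adjusted p = 0.783). Exons of *Acot4* overlap the antisense gene *4732463B04Rik* over 9.21% of their length, and this gene was at 0.657 CPM in *Ebf2* E165X/+ mouse 1 and 0.0937 to 0.371 CPM elsewhere. Without strand in the counting, which the sources used here do not give, reads of the overlap cannot be told apart.

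**Figure D3:**
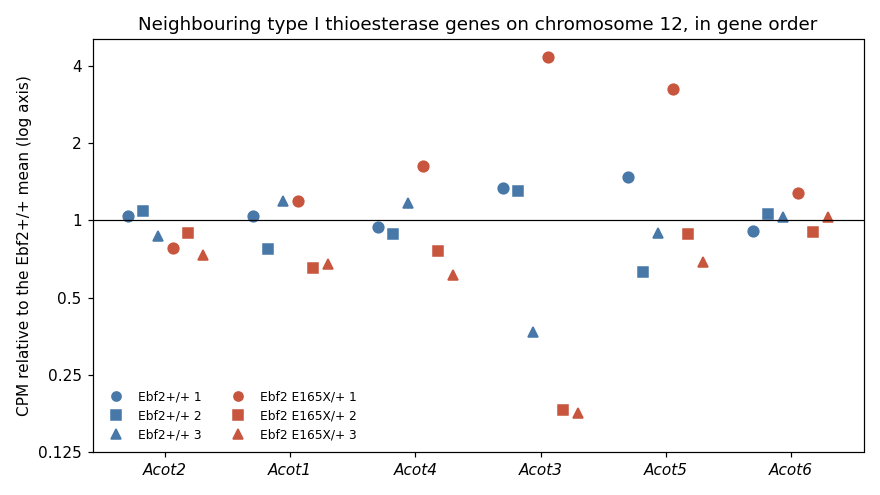
CPM of the 6 neighbouring type I genes in each mouse, divided by the *Ebf2*+/+ mean of the gene (log axis, horizontal line at 1); colours are genotypes and shapes are replicate numbers. *Ebf2* E165X/+ mouse 1 (circles) is highest for *Acot4*, *Acot3*, *Acot5* and *Acot6*, with *Acot3* and *Acot5* resting on at most 22 counts per library, and not for *Acot2*.

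The remaining type II members overlapped between the genotypes. *Acot7*, a cytosolic enzyme best known from neurons, was at 24.2, 20.1 and 18.7 CPM in *Ebf2*+/+ mice and 23.3, 19.1 and 19.3 CPM in *Ebf2* E165X/+ mice (log2 fold change −0.03, 95% confidence interval −0.33 to 0.27, edgeR adjusted p = 0.963). *Acot8*, which acts on many acyl-CoAs in peroxisomes, was at 9.51, 8.72 and 8.63 CPM and at 8.42, 9.30 and 8.23 CPM (−0.051, −0.31 to 0.21, edgeR adjusted p = 0.920). *Acot9*, mitochondrial and the most abundant member by counts, was at 52.7, 53.9 and 46.1 CPM and at 48.9, 52.0 and 52.4 CPM (0.0053, −0.18 to 0.19, edgeR adjusted p = 0.995). For these 3 genes the intervals leave room for log2 differences of at most 0.33 in either direction, so that changes as large as that of *Acot11* lay outside them. For *Acot4* and *Acot1* the intervals were wide (−0.82 to 0.82 and −0.95 to 0.43). Exons of *Acot8* overlap those of *Snx21* on the opposite strand over 12.3% of their length; *Snx21* had a log2 fold change of −0.26 (edgeR adjusted p = 0.783).

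**Figure D4:**
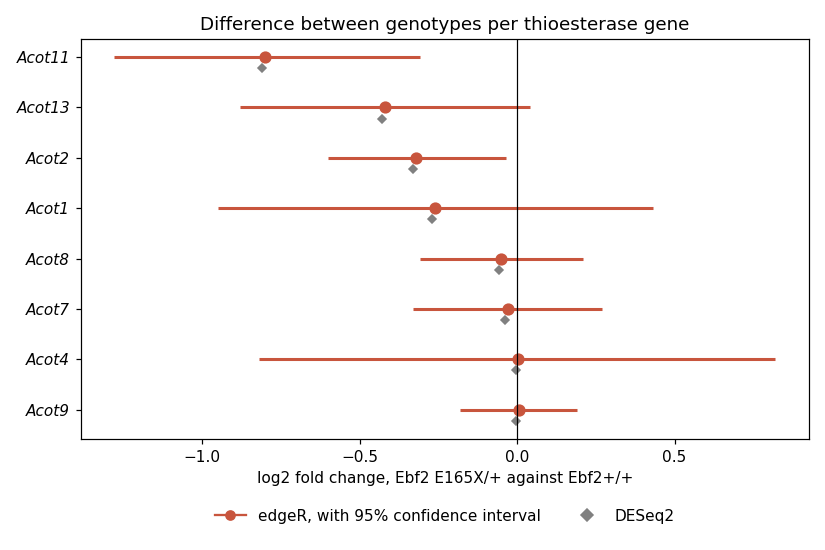
Log2 fold change of each member, *Ebf2* E165X/+ against *Ebf2*+/+ (horizontal axis; line at 0), by edgeR with 95% confidence interval (circles and bars, 3 mice per genotype) and by DESeq2 (diamonds). The intervals of *Acot11* and *Acot2* lie below 0 and those of the other 6 members span it.

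Of 19 other thioesterases tested, 2 were lower at an unadjusted p under 0.05 and 0 higher, with a median log2 fold change of −0.064, beside 3.09% lower over all genes tested. Of the 19, 12 had 10 or more counts in each library, both lower genes among them, beside 4.21% lower over all such genes. The count was 1 without *Ebf2*+/+ mouse 1, *Ebf2* E165X/+ mouse 1 or *Ebf2* E165X/+ mouse 3, and 3 without *Ebf2*+/+ mouse 2. *Hibch*, the mitochondrial thioesterase of valine breakdown, was at 151, 152 and 147 CPM in *Ebf2*+/+ mice and 118, 99.1 and 95.9 CPM in *Ebf2* E165X/+ mice. No *Ebf2* E165X/+ mouse reached the *Ebf2*+/+ range (log2 fold change −0.52, SE 0.096, edgeR adjusted p = 0.411; DESeq2 adjusted p = 0.000542). *Fasn*, the fatty acid synthase, whose thioesterase domain releases palmitate, was at 12648, 5101 and 6660 CPM and at 3701, 5554 and 3454 CPM, with an overlap and *Ebf2*+/+ mouse 1 far above the others (−0.94, SE 0.39, edgeR adjusted p = 0.783). Protein depalmitoylating enzymes differed little: *Ppt1* had a log2 fold change of 0.011, *Ppt2* −0.12, *Lypla1* −0.064, *Lypla2* 0.039, and *Abhd17a*, *Abhd17b* and *Abhd17c* −0.064, 0.10 and 0.0088. *Them4* and *Them6* were at −0.083 and −5.7e-04, and *Acot6* at 0.10, with edgeR adjusted p from 0.882 to 0.999. *Acot10*, the gene most like *Acot9*, had 6 to 18 counts per library and a log2 fold change of 0.19 (edgeR adjusted p = 0.928). *Them5*, found beside *Them4*, was at 0.699, 0.0285 and 0.492 CPM and at 0.346, 0.0721 and 0.148 CPM (−1.11, edgeR adjusted p = 0.783), while *Acot12*, *Baat* and *Olah* stayed below 10 counts in every library.

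Genes of the steps around acyl-CoA hydrolysis were examined next, again with edgeR at an unadjusted p under 0.05, since none of these genes passed the adjusted threshold. By that measure, 3.09% of all genes tested were lower and 1.68% higher, and 4.21% were lower among those with 10 or more counts in each library. The lists were chosen with earlier results of these data known. In mitochondrial β-oxidation and the carnitine shuttle, 20 of 24 genes were lower and 1 higher (median log2 fold change −0.54). DESeq2 called 15 lower at an adjusted p under 0.05, where it called 1.07% of its tested genes lower. The 3 with the smallest p were *Eci1*, an enoyl-CoA isomerase (−0.74, SE 0.084), *Acaa2*, the thiolase of the last step (−0.97, SE 0.11), and *Slc25a20*, the carnitine-acylcarnitine carrier (−0.63, SE 0.075). *Cpt1a*, which starts the shuttle, was the 1 higher gene, at 80.4, 84.1 and 86.8 CPM and at 115, 105 and 94.1 CPM (0.32, edgeR adjusted p = 0.783). Without *Ebf2* E165X/+ mouse 3, the count of lower genes was again 20.

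Peroxisomal lipid oxidation had 9 of 21 genes lower (median −0.28), beside 3.09% lower over all genes tested. They were led by the transporter *Abcd3* (−0.48), the phytanoyl-CoA hydroxylase *Phyh* (−0.51) and the isomerase *Ech1* (−0.45). Of 20 acyl-CoA synthetases tested, 4 were lower (median −0.20), with *Acsm3* at 17.9, 36.9 and 37.4 CPM and at 6.20, 4.32 and 5.36 CPM (−2.54, DESeq2 adjusted p = 7.48e-18), *Slc27a2* at −4.72 and *Acsf3* at −0.42, and 7 were lower without *Ebf2* E165X/+ mouse 1. In coenzyme A synthesis, transport and breakdown, 3 of 16 genes were lower (median −0.12): *Pank1*, a kinase of the first step of coenzyme A synthesis, from 24.1 ± 1.21 to 11.1 ± 1.58 CPM (SD, n = 3; log2 fold change −1.11, edgeR adjusted p = 0.101, DESeq2 adjusted p = 1.39e-13), the mitochondrial carrier *Slc25a42* (−0.47) and *Coasy* (−0.43). In that list 5 were lower without *Ebf2*+/+ mouse 3, without *Ebf2* E165X/+ mouse 1, and with DESeq2 size factors in edgeR. Of 11 acyl-CoA and fatty acid binding genes tested, 3 were lower (median −0.19), namely *Hsdl2* (−0.33), *Dbi* (−0.42) and *Acbd4* (−0.31), while 1 was lower without *Ebf2*+/+ mouse 1 or without *Ebf2* E165X/+ mouse 3, and 5 by DESeq2 at an unadjusted p under 0.05. The lists differ in size and expression and no test between them was made.

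**Figure D5:**
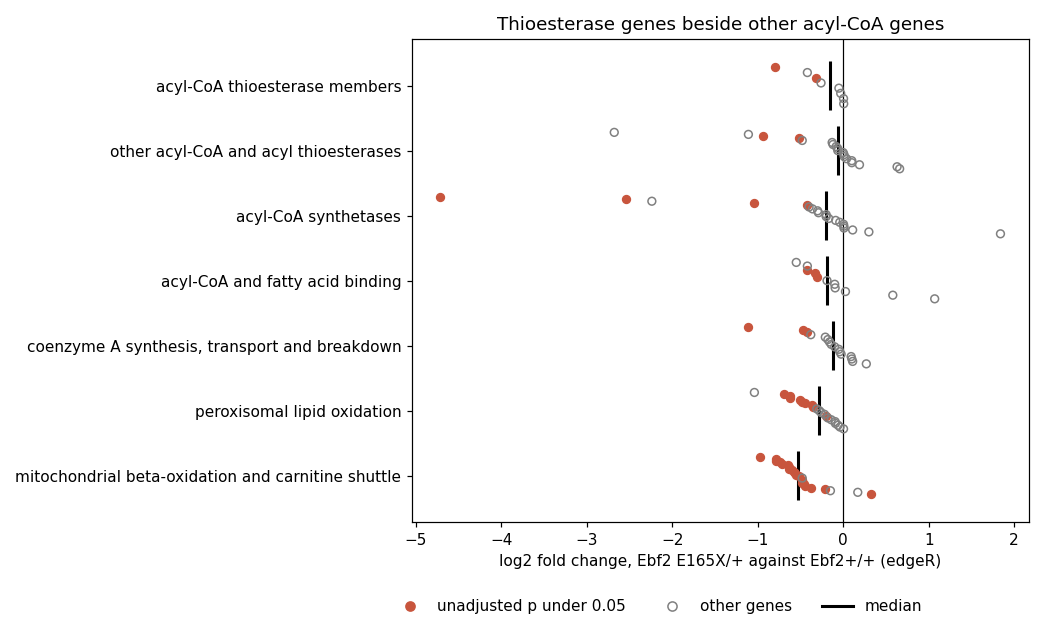
Log2 fold change, *Ebf2* E165X/+ against *Ebf2*+/+ (horizontal axis, edgeR), of each gene tested in 7 lists; filled points have an unadjusted p under 0.05 and vertical bars are medians. The medians are −0.15 for the members and −0.54 for mitochondrial β-oxidation, where 20 of 24 genes are filled on the lower side. Over all genes tested, 3.09% were lower by that measure.

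PPARα, encoded by *Ppara*, is known to activate several of the thioesterase genes. *Ppara* was at 10.9, 15.8 and 20.2 CPM in *Ebf2*+/+ mice and 4.39, 6.52 and 6.11 CPM in *Ebf2* E165X/+ mice, without overlap (log2 fold change −1.46, SE 0.25, edgeR adjusted p = 0.377, DESeq2 adjusted p = 6.34e-07). Of 18 genes of the PPARα list, 8 were lower and 1 higher at an unadjusted p under 0.05, beside 3.09% and 1.68% of all genes tested. The list holds *Ppara* itself and shares genes with the β-oxidation list, *Slc25a20* among them. The part of PPARα in the thioesterase levels was not tested. Among brown and beige adipocyte genes, a list that holds the edited gene *Ebf2* itself, 11 of 15 were lower at that p. *Cidea* passed the adjusted threshold (−3.24, edgeR adjusted p = 0.00462) and *Ucp1* was at −5.83 (edgeR adjusted p = 0.0596). This list was chosen with earlier results of these data known, so its count is not independent of them. Of 12 white adipocyte genes, 0 were lower at an unadjusted p under 0.05 and 3 without *Ebf2* E165X/+ mouse 1. All 12 log2 fold changes were nevertheless negative (median −0.28), beside 43.9% of the genes with 10 or more counts in each library. Summed levels of the white adipocyte genes were 34050, 34867 and 30562 CPM and 32425, 29333 and 22982 CPM, with *Car3* the most abundant and none at 0 in any library, so that the fat tissue of the label was present in every library. Brown and beige genes, *Ebf2* included, summed to 359, 394 and 397 CPM and to 149, 161 and 192 CPM. *Acot11* and this sum were thus both lower in each *Ebf2* E165X/+ mouse than in any *Ebf2*+/+ mouse, and the part of brown or beige cell number in *Acot11* was not tested.

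Markers of other cell types were counted in the same way. All 16 skeletal muscle markers had a positive log2 fold change (median 1.95), none with an unadjusted p under 0.05. This direction rested on *Ebf2* E165X/+ mouse 3, without which all 16 were negative (median −1.04, 0 with an unadjusted p under 0.05), and without *Ebf2* E165X/+ mouse 2, the library with the lowest muscle sum, 13 were higher at that p. B cell markers summed to 476, 757 and 756 CPM in *Ebf2*+/+ mice and to 783, 890 and 808 CPM in *Ebf2* E165X/+ mice, which did not overlap, with *Cd22* the most abundant of 8 genes (exact permutation test of the shares of counts, p = 0.1, the smallest it can give). Macrophage markers, led by *Lyz2*, summed to 1811, 1419 and 1822 CPM and to 1829, 1747 and 1923 CPM, which overlapped, while their shares of counts were 0.174%, 0.140% and 0.182% against 0.191%, 0.186% and 0.182% (exact permutation test, p = 0.1, the smallest it can give). Epithelial markers were at 107, 4.40 and 50.8 CPM and at 39.5, 4.04 and 8.45 CPM, with *Krt5* the most abundant, and erythroid markers at 3084, 2144 and 3330 CPM and at 4594, 2581 and 2014 CPM. Endothelial markers, led by *Pecam1*, summed to 1360, 1326 and 1286 CPM and to 1220, 1265 and 993 CPM. They did not overlap on this scale but did as shares of all counts (0.131%, 0.131% and 0.129% against 0.127%, 0.135% and 0.0942%; exact permutation test of the shares, p = 0.700). The genotypes overlapped for T cell markers (272, 360 and 364 against 369, 408 and 351 CPM, led by *Lck*) and fibroblast and progenitor markers (18408, 13310 and 17591 against 17711, 17147 and 17328 CPM, led by *Col3a1*). *Ebf2*+/+ mouse 1 thus had the highest epithelial sum, *Acot11* and *Fasn*, and *Ebf2* E165X/+ mouse 1 the highest erythroid sum and *Acot4*. Their part in these levels was not tested.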

How the data were processed

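Each of 6 mice gave 1 IWAT library. For each gene and library the authors deposited an expected count, the estimated number of fragments, unscaled. Per the submitters' processing notes, the tools were cutadapt 4.8, FastQC 0.11.8, STAR 2.7.8a, RSEM 1.3.3 and MultiQC 1.20 with GRCm38. The values were whole numbers, so rounding changed none. The labels and the study's supplement name different library kits. Genotypes and replicate numbers were taken from the labels, which do not state litters.

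Counts were analysed with edgeR 4.0.16 (TMM, genes with 1 or more counts in some library, glmQLFit and glmQLFTest, genotype as the only term, two-sided, Benjamini-Hochberg adjustment over all genes tested). Tests of single sums were two-sided exact permutation tests. Alternatives were DESeq2 1.42.0 with and without independent filtering, limma-voom (limma 3.58.1), DESeq2 size factors in edgeR, filterByExpr, a minimum of 10 counts in each library, a replicate block, *Acot1* to *Acot6* or *Acot1* and *Acot2* summed, other length scales, and each mouse left out; DESeq2 with each mouse left out was added after seeing the data. The tests were checked on simulated counts with known changes and a set dispersion, not one estimated from these mice. How often changes of the size of that of *Acot11* were recovered is not given here. Fold changes within genes do not depend on length.

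Gene models were GENCODE M21 (GRCm38), which holds 55141 of the 55491 identifiers, and promoters RefSeq (GRCm38.p6), with entries for 7 of the 8 members. The members and lists (239 of 240 symbols in the table) were chosen with earlier results of these data known. By rule, all members and other thioesterases with at least 10 counts in a library were named, from other lists at most 3 genes with the smallest unadjusted p under 0.05, the reference genes *Ebf2*, *Ucp1*, *Cidea* and *Ppara*, and the 3 listed genes most correlated with *Acot11* and with *Acot13* in log2 CPM. *Cpt1a*, overlapping genes, low genes of the thioesterase list and most abundant markers were named after their values were seen. Python 3.11.15 with pandas 2.3.3 and scipy 1.17.1 was used.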

Additional observations from a re-analysis of the deposited data

How the results depend on the processing

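The number of genes called over all genes tested, 3 in edgeR, was 189 by DESeq2 with independent filtering and 157 without it, 2 to 4 with limma-voom, other size factors, other filters and summed genes, and 1 to 11 with each mouse left out (1 without *Ebf2*+/+ mouse 2, 11 without *Ebf2* E165X/+ mouse 3). The members called, 0 in edgeR under every alternative run there and 0 by limma-voom, were 1 by DESeq2 with or without independent filtering (*Acot11*, log2 fold change −0.81, adjusted p = 0.0148 and 0.0286) and 0 to 2 by DESeq2 with each mouse left out. They were 2 without *Ebf2* E165X/+ mouse 3 (*Acot11* and *Acot13*) and 2 without *Ebf2*+/+ mouse 3 (*Acot11* and *Acot2*, DESeq2 adjusted p = 0.0448 and 0.0386). Members lower at an unadjusted p under 0.05, 2 in edgeR, were 3 by DESeq2 (*Acot11*, *Acot2* and *Acot13*), 1 with *Acot1* to *Acot6* summed, and 1 to 2 with each mouse left out (1 without *Ebf2*+/+ mouse 1 or 2). The gene beside *Acot11* changed in these fits. It was *Acot4* without *Ebf2* E165X/+ mouse 1 (edgeR unadjusted p = 0.0273) and *Acot13* without *Ebf2* E165X/+ mouse 3 (edgeR unadjusted p = 0.000794). The median log2 fold change of the members was −0.31 to −0.069 with each mouse left out (−0.31 without *Ebf2* E165X/+ mouse 1).

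*Acot4*, *Acot9* and *Acot7*, fitted near 0, changed sign. *Acot4* was −0.0048 in DESeq2 with or without independent filtering, −0.14 in limma-voom, −0.0046 with DESeq2 size factors in edgeR, −1.9e-04 with filterByExpr, −0.015 with a minimum of 10 counts in each library, −0.12 with the replicate block, −0.16 with *Acot1* to *Acot6* summed, and −0.54 to 0.26 with each mouse left out. *Acot9* was −0.0034 in DESeq2, −0.0035 with its size factors, −0.016 with that minimum, and −0.085 to 0.036 with each mouse left out, and *Acot7* was −0.13 to 0.068 there. *Acot11*, *Acot13*, *Acot2*, *Acot1* and *Acot8* kept a negative value in every alternative run. The order of levels moved for 2 members with the longest transcript as length and for 5 with no length. The cause of these differences was not tested.

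Deviations from the genotype means correlated at 0.153, −0.278 and −0.162 for mice of the same replicate number (1, 2 and 3). Mice of different numbers correlated at −0.317 to 0.395. No pairing was thus seen, but 3 mice per genotype are too few to exclude one. With the replicate block, 2 genes and 0 members were called, and *Acot11* was at −0.77 (edgeR adjusted p = 0.941).

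The members had at least 166 counts in each library. With 3 mice per genotype, wide intervals remain for *Acot1* and *Acot4*, and leaving out 1 mouse leaves 2 in a genotype. One *Ebf2* E165X/+ library carried high muscle markers, and the library kit is uncertain.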
